A study of Mus musculus with 16 samples.

Results

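Cxcl12, Cxcr4 and Ackr3, a chemokine and its receptors, were taken by gene symbol as 3 of the 19715 genes in a deposited single-cell RNA-seq matrix of mouse neuroblastoma grafts. They are described here in every cell type name and library of the deposit. The hosts were male C57BL/6 mice, 8 weeks old, that were wild type (WT) or lacked the inhibitory receptor CD200R (CD200R-/-, named KO in the libraries), and every host carried a subcutaneous graft of the same mouse neuroblastoma line, NB9464D. Tumors were taken on day 28 and digested with collagenase, and either all tumor cells or leukocytes sorted by flow cytometry for the pan-leukocyte marker CD45 were loaded. The sorted groups are called WT-sorted and KO-sorted below, and the unsorted groups WT-tumor and KO-tumor. The labels list 4 samples in each group, but no cell can be traced to a sample within its group. Each group was therefore 1 library here, and no test, p-value or standard error could be given. All intervals are 95% and cover counting error only.

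Cxcl12, also called SDF-1, is a chemokine that stromal and endothelial cells secrete and that holds stem cells and B-lineage cells in the bone marrow niche. Cxcr4 is its Gi-coupled signalling receptor and is carried by most leukocytes, whereas Ackr3, also called CXCR7, binds the same chemokine without G protein signalling, internalises it and so lowers its amount around the cell. Cxcr4 transcription is known to respond to low oxygen, glucocorticoids and cyclic AMP, and Cxcr4 on tumor cells is known for its part in metastasis.

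On mm10, Cxcl12 lies on chromosome 6 from 117168535 to 117181367 on the plus strand, with 4 annotated transcripts. Cxcr4 lies on chromosome 1 from 128588199 to 128592293 on the minus strand, and Ackr3 lies on the same chromosome from 90203980 to 90216751 on the plus strand. The 3' counting kit does not tell their transcripts apart. Cxcr4 differed between genotypes in many cell types at once, while Ackr3 in unsorted fibroblast- and neuroblastoma-named cells hardly did. In sorted cells Ackr3 was at least 2-fold lower in KO in 2 of the 3 names counted. The 250 bases upstream of each RefSeq gene start (GRCm38.p6, the assembly behind mm10) are shown as a description. Their part in these patterns was not tested. They were chr6:117168285-117168534 on the plus strand for Cxcl12, chr1:128592300-128592549 on the minus strand for Cxcr4 and chr1:90203730-90203979 on the plus strand for Ackr3. Capitals mark matches, on either strand, to the GC box GGGCGG, the hypoxia response cores ACGTG and GCGTG, the TATA box TATAAA, the E-box CACGTG and the palindromic NRF1 site.
Cxcl12: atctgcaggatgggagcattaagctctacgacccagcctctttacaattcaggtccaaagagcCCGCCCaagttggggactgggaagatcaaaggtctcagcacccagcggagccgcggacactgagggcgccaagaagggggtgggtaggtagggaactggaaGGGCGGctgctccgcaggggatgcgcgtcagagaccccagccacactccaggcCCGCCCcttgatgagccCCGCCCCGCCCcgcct
Cxcr4: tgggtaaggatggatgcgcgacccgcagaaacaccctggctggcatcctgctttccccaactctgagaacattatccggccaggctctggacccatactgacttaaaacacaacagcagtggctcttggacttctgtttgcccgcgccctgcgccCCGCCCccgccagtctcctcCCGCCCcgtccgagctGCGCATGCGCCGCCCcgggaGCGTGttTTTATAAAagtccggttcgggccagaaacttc
Ackr3: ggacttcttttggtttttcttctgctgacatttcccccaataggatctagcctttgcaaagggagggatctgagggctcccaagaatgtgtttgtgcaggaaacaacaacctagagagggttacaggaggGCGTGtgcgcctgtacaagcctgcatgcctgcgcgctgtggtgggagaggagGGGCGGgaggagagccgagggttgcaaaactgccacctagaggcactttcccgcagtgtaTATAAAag
The Cxcl12 promoter was the richest in G and C, at 64.4%, and held 5 GC boxes, of which the last 2 overlap. In the Cxcr4 promoter, with 61.2% G and C, there were 3 GC boxes, 1 GCGTG core, a pair of overlapping TATA matches and 1 NRF1 site whose last base is shared with a GC box. The Ackr3 promoter, with 54.0% G and C, held 1 GC box, 1 GCGTG core and 1 TATA match. Of 32851 mouse promoter windows, 32.7% held a GC box, 28.2% GCGTG, 16.6% ACGTG, 12.4% TATAAA, 6.02% CACGTG and 0.782% the NRF1 site. ACGTG and CACGTG were in none of the 3 windows. These matches describe letters in a window and are not measured binding sites.

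The matrix held 20376 cells, with 4305 to 5897 cells and 29200338 to 103877007 unique molecular identifiers (UMIs, each 1 captured RNA molecule) per library. Median UMIs per cell were 4665 in WT-sorted, 3127 in KO-sorted, 19850 in WT-tumor and 16276 in KO-tumor. Cd200r1, the targeted gene, had 2888 UMIs in WT-sorted and 0 in KO-sorted, and 76 UMIs in WT-tumor against 5 in KO-tumor. Cd200, which encodes the ligand of the receptor, was still read in KO-sorted (1482 UMIs) although one label calls the mutant CD200-/-. The same barcode sequence occurred in more than 1 library for 113 barcodes, which cover 307 cells, and values without them are given beside the sorted neuroblastoma- and fibroblast-named cells, where they moved a ratio most. Cell type names are the authors'. B, T, NK, Treg and endothelial names had all their listed markers at least 2-fold above the other cells of the library, while sorted M2 macrophages had 3 of 9 in WT and 4 of 9 in KO and sorted myeloid dendritic cells 3 of 7 and 2 of 7. Sorted cells named hematopoietic stem cells had all 6 B cell markers at least 2-fold above the other cells (8102 summed CPM in WT and 5194 in KO). Mast cell markers also stood above there, 3 of 5 in WT (371 summed CPM) and 5 of 5 in KO (1723), as did 3 of 6 erythroid markers in KO (122). The sorted cells named cancer stem cells had median mitochondrial shares of 59.8% in WT and 56.8% in KO. In WT they also had all 6 erythroid markers at least 2-fold above the other cells, at 207475 summed CPM. In the tumor libraries 0 of 4 neuroblastoma markers stood 2-fold above the rest in neuroblastoma-named cells, and fibroblast markers did so in fibroblast-named cells for 1 of 8 in WT and 7 of 8 in KO, so both are used here only as names; together they are called graft names.

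Cxcl12 RNA was rare and, over the whole matrix, was held mostly by endothelial-named cells, chiefly those of KO hosts. The whole matrix had 263 Cxcl12 UMIs in 61 cells, 0.299% of all cells. By library these were 5 UMIs in WT-sorted, 100 in KO-sorted, 23 in WT-tumor and 135 in KO-tumor. The 34 endothelial-named cells had 182 of them, 69.2% of the total, in 14 cells. The 5196 fibroblast-named cells had 54 UMIs (20.5%) in 25 cells, the 3324 neuroblastoma-named cells had 10 in 7 cells, and the other 11822 cells had 17 in 15 cells. Of the positive cells, 40 had a single UMI. Most Cxcl12 UMIs of the matrix were thus in a few cells, the 4 highest of them from KO hosts. In WT-tumor the endothelial-named cells had 6 of the 23 UMIs, fibroblast-named cells 10 and neuroblastoma-named cells 6. In WT-sorted the endothelial-named cells had 3 of the 5.

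**Figure D1:**
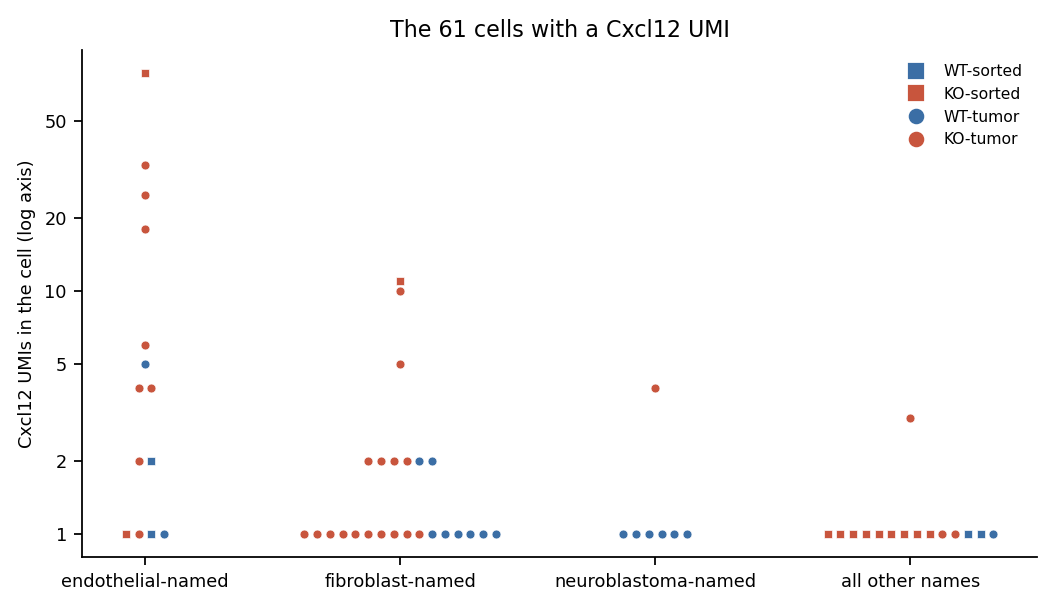
Each point is 1 of the 61 cells with a Cxcl12 UMI, placed by its cell type name and, on a log axis, by its Cxcl12 UMIs; squares are CD45+ sorted and circles total tumor cells, blue wild type and red CD200R-/-. The 4 highest cells, with 79, 33, 25 and 18 UMIs, are endothelial-named and from CD200R-/- hosts, and most cells sit at 1.

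The leading cells showed clear cell identities. The cell with the most Cxcl12 was an endothelial-named cell of KO-sorted with 79 of its 9969 UMIs, a level of 7925 CPM (counts per 1e6 UMIs). It also had 24 UMIs of Pecam1, 28 of Cdh5 and 44 of Kdr, which encode endothelial junction proteins and a VEGF receptor, and 0 of Ptprc, which encodes CD45. The next were 3 endothelial-named cells of KO-tumor with 33, 25 and 18 Cxcl12 UMIs. Together these 4 cells held 155 UMIs, 58.9% of all Cxcl12 in the matrix. The fifth was a fibroblast-named cell of KO-sorted with 11 Cxcl12 UMIs, 329 of Col1a1, 595 of Col1a2, 703 of Col3a1 and 61 of Dcn, all matrix genes of fibroblasts. None of the 9 cells with 5 or more Cxcl12 UMIs had a barcode found in another library, and all 9 had 0 Ptprc UMIs.

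Among the endothelial-named cells the 4 libraries differed, on very few cells. WT-sorted had 3 Cxcl12 UMIs in 2 of 5 cells (44.3 CPM, 9.13 to 129), and KO-sorted had 80 UMIs in 2 of 3 cells (4489 CPM, 3560 to 5587). WT-tumor had 6 UMIs in 2 of 13 cells (16.8 CPM, 6.18 to 36.6), and KO-tumor had 93 UMIs in 8 of 13 cells (443 CPM, 358 to 543). The KO intervals lay above the WT intervals in both preparations, but 79 of the 80 KO-sorted UMIs came from 1 cell and the intervals do not cover the spread between cells or mice. The cells also differed in content: at least 3 fibroblast markers were read in 5 of 13 WT-tumor and 1 of 13 KO-tumor endothelial-named cells, and 5 and 2 of them carried markers of 2 lineages. The part of this in the Cxcl12 difference was not tested.

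All 3 genes were read together in endothelial-named cells. Of the 34 cells, 14 had a Cxcl12 UMI, 20 a Cxcr4 UMI and 23 an Ackr3 UMI. Cxcl12 with Cxcr4 was read in 10 cells, Cxcl12 with Ackr3 in 8, Cxcr4 with Ackr3 in 16 and all 3 in 7. The endothelial-named Cxcr4 levels were 280 CPM in WT-sorted, 98.2 in WT-tumor and 124 in KO-tumor, and 0 UMIs in the 3 KO-sorted cells. Ackr3 stood there at 428 CPM in WT-sorted, 393 in KO-sorted, 185 in WT-tumor and 57.2 in KO-tumor. The highest level in a name with at least 50 cells was 20.2 CPM, in KO-tumor M2 macrophages, whose interval overlapped only that of the KO-tumor endothelial-named cells. Over the whole matrix only 69 cells had both receptors.

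Under the graft names Cxcl12 was near the limit of counting. Fibroblast-named tumor cells had 10 UMIs in WT (0.208 CPM, 0.0996 to 0.382) and 33 in KO (0.699 CPM, 0.481 to 0.982). Ratios between genotypes are given as log2 KO over WT of CPM minus that of the median gene of the same cell type name, counting genes with at least 50 UMIs, and a ratio of at least 2-fold is called. For Cxcl12 in fibroblast-named tumor cells this ratio was 1.46 (0.40 to 2.64), called higher where 8.5% of 13211 genes were at least 2-fold higher. Of the 33 KO UMIs, 15 came from 2 cells. Neuroblastoma-named tumor cells had 6 UMIs in WT and 4 in KO, with a ratio of -0.51 (-2.78 to 1.57) that spans 0. B, T, NK, Treg and neutrophil names had at most 1 UMI in any library. For B cells, 0 UMIs in 972 WT-sorted cells allow a share of up to 0.379% of cells with a UMI, and 0 in 943 KO-sorted cells up to 0.39%.

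Cxcr4 RNA was abundant in leukocytes and was higher in CD200R-/- hosts in nearly every leukocyte name. The matrix had 14532 Cxcr4 UMIs in 4803 cells, 23.6% of all cells. Whole libraries stood at 66.8 CPM in WT-sorted, 323 in KO-sorted, 1.07 in WT-tumor and 7.91 in KO-tumor. These whole-library levels also move with the share of leukocytes, so the levels below are within cell type names. Among the 14 names with at least 50 cells in both sorted libraries, Cxcr4 was at least 2-fold higher in KO in 10 and at least 2-fold lower in 0, and its median ratio was 1.56 on the log2 scale. In the same comparisons 4.81% to 14.7% of genes were at least 2-fold higher and 4.86% to 18.2% at least 2-fold lower, with a median gene of 0 by construction. Before that centring the median gene itself stood at -0.02 to 0.53 on the log2 scale in the sorted names and 0.18 to 0.35 in the tumor names.

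B cells had the highest Cxcr4 level in KO-sorted. WT-sorted B cells had 851 Cxcr4 UMIs in 972 cells, a level of 272 CPM (254 to 291), and KO-sorted B cells had 3912 UMIs in 943 cells, 1748 CPM (1694 to 1804). The KO over WT ratio was 2.24 (2.13 to 2.35). Of 7285 genes 9.91% were at least 2-fold higher in these cells, and 14 had a higher ratio than Cxcr4. Sorted cells named hematopoietic stem cells, which carried B cell and also mast cell markers, stood at 318 CPM in WT and 1110 in KO. Their ratio was 1.48 (1.27 to 1.69), against 9.58% of genes called higher, but it was 0.91 and not called when each cell had equal weight. When the Cxcr4-positive cells of this name were taken alone, their summed B cell markers were 8978 CPM in WT and 7106 in KO, and in the negative cells 7560 and 2559. The part of this makeup in the ratio was not tested.

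Among T lymphocytes, CD4 and CD8 T cells had low WT levels and the highest ratios of the sorted names, and effectors and Tregs had higher WT levels and lower ratios. CD4 T cells had 34 UMIs in WT (31.8 CPM, 22.0 to 44.4) and 209 in KO (352 CPM, 306 to 403). Their ratio was 2.95 (2.43 to 3.52), against 11.3% of genes called higher, and 3 of 3764 genes had a higher ratio. CD8 T cells stood at 42.3 CPM in WT and 342 in KO, a ratio of 2.49 (2.09 to 2.91) where 9.66% of genes were called higher and 1 of 4832 genes had a higher ratio. These were the names in which Cxcr4 stood nearest the top of all genes. CD8+ effectors stood at 125 and 515 CPM, a ratio of 1.64 (1.31 to 1.98) against 9.2% of genes. Tregs stood at 113 and 410 CPM, a ratio of 1.43 (1.04 to 1.84) against 11.0% of genes. All 4 T cell names had KO intervals above their WT intervals. Of the WT-sorted Tregs 35.1% carried markers of several lineages, against 9.34% in KO-sorted, and the part of this in their ratio was not tested.

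Innate leukocytes differed in size of change. NK cells stood at 38.3 CPM in WT and 249 in KO, a ratio of 2.35 (2.02 to 2.68) against 10.5% of genes called higher. Neutrophils stood at 167 and 908 CPM, a ratio of 2.05 (1.75 to 2.34) against 14.7% of genes. M2 macrophages stood at 93.4 and 270 CPM, a ratio of 1.17 (1.03 to 1.31) against 6.03% of genes. M1 macrophages and myeloid dendritic cells changed least and were not called. M1 macrophages stood at 52.0 CPM in WT and 121 in KO, a ratio of 0.92 (0.78 to 1.06) where 7.35% of genes were called higher; by total UMIs it was 1.22 and after thinning 1.20, both past 2-fold. Myeloid dendritic cells stood at 52.9 and 91.3 CPM, a ratio of 0.54 (0.23 to 0.84) where 4.81% of genes were called. Dendritic names with under 50 cells in WT-sorted had 39.3 CPM in WT and 165 in KO for migratory, 20.6 and 44.4 for CD11c+ resident and 71.2 and 244 for plasmacytoid dendritic cells. The intervals were apart for migratory and plasmacytoid dendritic cells and touched for the CD11c+ ones.

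Names that are not of leukocytes also had Cxcr4 UMIs in the sorted libraries. Summed leukocyte markers there were 334 CPM in WT and 361 in KO in cancer stem-named cells, 113 and 93.2 in fibroblast-named cells and 1048 and 2374 in neuroblastoma-named cells, so none of them was free of leukocyte RNA. Sorted cells named cancer stem cells had 18 Cxcr4 UMIs in WT (22.8 CPM, 13.5 to 36.0) and 4 in KO (17.8 CPM, 4.85 to 45.6), a ratio of -0.33 (-2.35 to 1.27) where 13.6% of genes were called higher, and 2.0 when each cell had equal weight. Fibroblast-named sorted cells had 10 UMIs in each library, 2.23 and 5.33 CPM, a ratio of 0.88 (-0.54 to 2.30) where 11.2% of genes were called; without shared barcodes it was 1.73, on 9 and 8 UMIs. The WT level of CD4 T cells overlapped that of the cancer stem-named cells, and the part of free RNA in the low WT levels was not tested. Nor was the part of erythroid RNA in the level and ratio of the cancer stem-named cells. Neuroblastoma-named sorted cells stood at 21.5 CPM in WT and 110 in KO, a ratio of 2.09 (1.83 to 2.36) against 11.6% of genes, which was 2.62 without shared barcodes and 2.97 after thinning. Within that name the cells with a Cxcr4 UMI had summed leukocyte markers of 1619 CPM in WT and 3010 in KO, and those without had 758 and 1655. The Cxcr4 of neuroblastoma-named sorted cells was thus read beside leukocyte RNA. Its makeup differed between genotypes: the cells with a Cxcr4 UMI had 10149 CPM of summed monocyte and macrophage markers in WT and 1962 in KO. In KO-sorted, 4 of 6 NK cell markers stood at least 2-fold above the other cells under this name. The part of this makeup in the ratio was not tested.

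In order of level, WT-sorted hematopoietic stem-named and B cells stood first at 318 and 272 CPM with overlapping intervals. Neutrophils, CD8+ effectors, Tregs and M2 macrophages followed from 167 down to 93.4 CPM, each overlapping its neighbour. Myeloid dendritic cells, M1 macrophages, CD8 T, NK and CD4 T cells lay between 52.9 and 31.8 CPM and also overlapped in turn. KO-sorted levels separated more. B cells at 1748 CPM stood apart from hematopoietic stem-named cells at 1110, which overlapped neutrophils at 908. CD8+ effectors at 515 CPM, then Tregs, CD4 and CD8 T cells from 410 to 342, M2 macrophages and NK cells at 270 and 249, migratory dendritic cells at 165 and M1 macrophages at 121 CPM came next. B cells led in KO-sorted and KO-tumor under every alternative tried, while the first place in WT-sorted passed from hematopoietic stem-named to B cells under thinning and under the stricter cell filter.

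**Figure D2:**
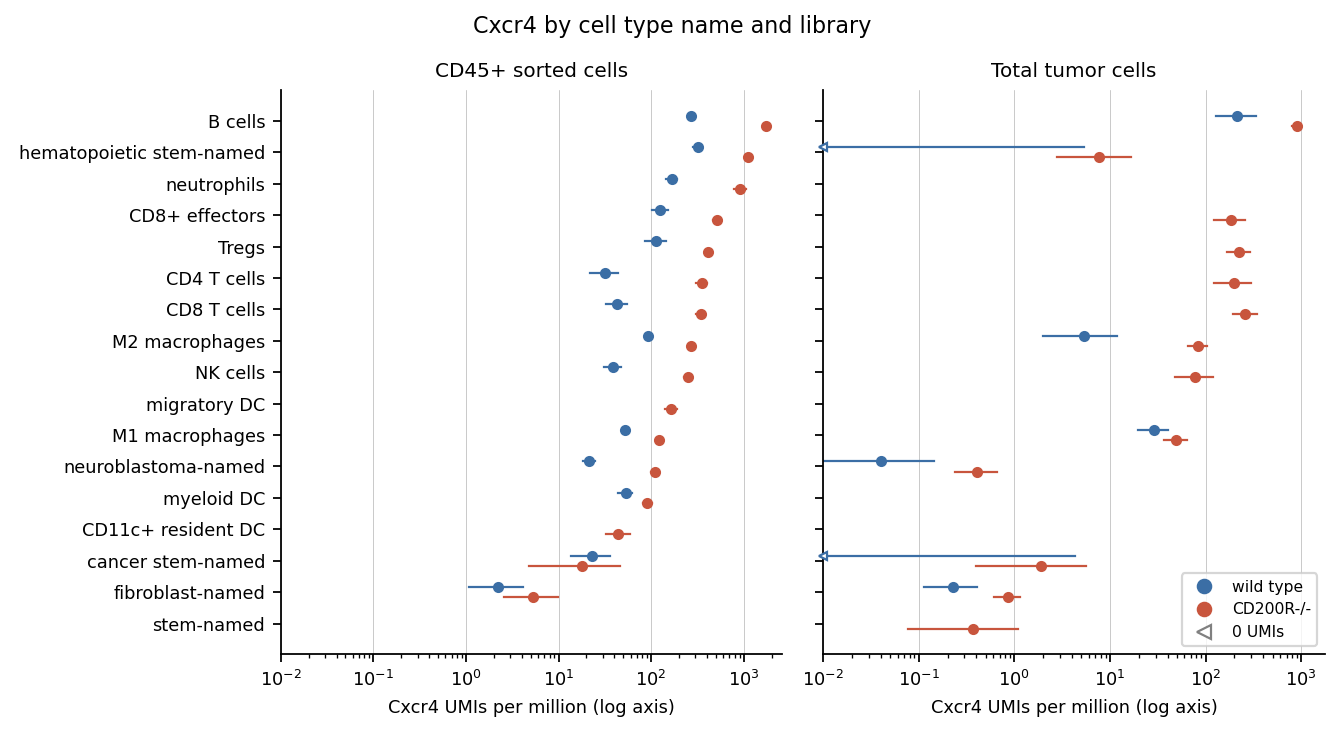
Cxcr4 CPM (log axis) by cell type name for names with at least 50 cells in the library; points are library values, lines exact 95% Poisson intervals, blue wild type and red CD200R-/-, and open triangles at the left edge mark 0 UMIs. In the sorted panel the red point lies to the right of the blue one in 13 of 14 names, with B cells at 272 and 1748 CPM.

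Libraries differed in depth, so shares of cells were compared after each cell was thinned to 2000 UMIs, which left out 53 of 972 WT and 375 of 943 KO B cells. Before thinning, 49.8% of WT-sorted and 88.2% of KO-sorted B cells had a Cxcr4 UMI, at medians of 3118 and 2168 UMIs. Cancer stem-named sorted cells had 3.42% and 2.19% at medians of 1583 and 1402, and fibroblast-named tumor cells had 0.325% and 0.842% at medians of 18299 and 18136. After thinning, 63.3% of WT and 13.6% of KO B cells had 0 Cxcr4 UMIs, and 0.218% of WT and 32.4% of KO B cells had 5 or more. The mean was 0.526 UMIs per WT and 3.38 per KO B cell. Most KO B cells thus had Cxcr4 at this depth, and most WT B cells had none. Among CD4 T cells the share with 0 UMIs was 93.4% in WT and 62.1% in KO, among CD8 T cells 93.3% and 58.2%, and among NK cells 91.2% and 66.8%. Neutrophils had 79.8% of 326 cells in WT and 21 of 42 cells in KO, and M2 macrophages 85.2% and 64.1%. Myeloid dendritic cells, at 90.4% and 88.4%, hardly differed. In T, NK and M2 names most KO cells still had no Cxcr4 UMI at this depth.

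**Figure D3:**
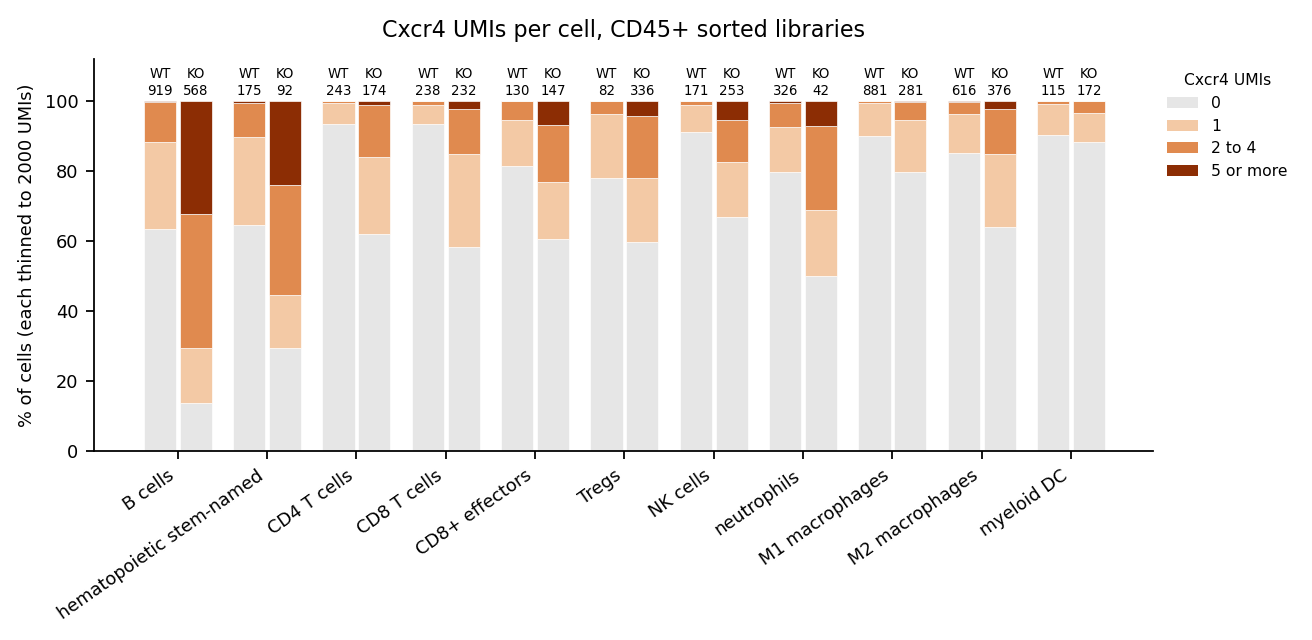
Stacked bars give the share of sorted cells (y axis, percent) with 0, 1, 2 to 4 or 5 or more Cxcr4 UMIs after each cell was thinned to 2000 UMIs, for 11 leukocyte names, wild type at the left and CD200R-/- at the right of each pair with cell numbers above. Cells with 0 UMIs fall from 63.3% to 13.6% in B cells and from 90.4% to 88.4% in myeloid dendritic cells.

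Unsorted tumor libraries, prepared separately from the sorted ones, held fewer leukocytes. Names with at least 20 Cxcr4 UMIs numbered 4 of 7, and Cxcr4 was at least 2-fold higher in KO in 3 and lower in 0. B cells had 19 UMIs in 58 WT cells (213 CPM, 128 to 333) and 372 in 327 KO cells (894 CPM, 806 to 990). Their ratio was 1.88 (1.21 to 2.62) against 12.8% of genes called higher. B cells were thus called in both preparations, which 5.69% of 1319 genes were. M1 macrophages stood at 28.9 CPM in WT and 49.0 in KO, a ratio of 0.57 (-0.08 to 1.25) that was not called, where 6.4% of genes were. After thinning, which left few UMIs, it was 2.96.

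M2 macrophages of the tumor libraries had 6 Cxcr4 UMIs in 81 WT cells (5.4 CPM, 1.98 to 11.8) and 78 in 168 KO cells (82.8 CPM, 65.4 to 103). The ratio was 3.59 (2.40 to 5.08) against 12.9% of genes called higher, and M2 macrophages were called in both preparations, as 1.33% of 4650 genes were. After thinning the tumor ratio was 1.95. The cells under this name differed between the tumor libraries: summed monocyte and macrophage markers were 1254 CPM in WT and 4536 in KO, and in the 77 WT cells without a Cxcr4 UMI summed fibroblast markers were 1415 CPM against 1205 of macrophage markers. The part of that mixture in the ratio was not tested. Fibroblast-named tumor cells had 11 and 40 Cxcr4 UMIs, 0.229 and 0.847 CPM, a ratio of 1.60 (0.61 to 2.71) against 8.5% of genes called higher. It fell short of 2-fold under the stricter cell filter (0.94) and without doublets (0.95), and the 21 KO cells with a Cxcr4 UMI had summed leukocyte markers of 292 CPM against 10.9 in the others. Neuroblastoma-named tumor cells had almost no Cxcr4, with 2 UMIs in 1665 WT cells and 17 in 1283 KO cells. These are 0.0398 and 0.407 CPM, and with under 20 UMIs the name was not counted. Its 12 KO cells with a Cxcr4 UMI had summed leukocyte markers of 87.3 CPM against 12.7 in the others. The T, Treg and NK names had at least 50 cells in KO-tumor alone. Cxcr4 there stood at 259 CPM in CD8 T cells, 222 in Tregs, 196 in CD4 T cells, 182 in CD8+ effectors and 77.2 in NK cells. The few WT-tumor cells of these names, 6 to 12 each where any were present, had 1 Cxcr4 UMI between them.

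Between preparations of the same genotype, Cxcr4 was higher in sorted than in unsorted leukocytes. In KO hosts the log2 ratio of sorted over tumor, relative to the median gene, was 0.68 (0.53 to 0.84) in B cells, 1.19 in CD8+ effectors, 1.51 in NK cells, 1.25 in M1 macrophages and 0.66 in Tregs. CD8 T cells, at 0.07, and CD4 T cells, at 0.50 (-0.14 to 1.20), did not differ beyond counting error. In WT hosts the ratio was 0.27 (-0.38 to 1.01) in B cells and 0.81 in M1 macrophages. For M2 macrophages in WT it was 3.82 (2.69 to 5.27), where 23.6% of genes were at least 2-fold higher. That value rests on 6 tumor UMIs under the mixed name described above. Sorting takes time and was done for 1 preparation only, so sorting and library cannot be told apart. The genotype ratio in B cells, 2.24 sorted and 1.88 unsorted, was read in both.

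Other genes were looked at beside Cxcr4 for how wide its change was. Of 2932 genes with at least 50 UMIs in 12 or more sorted names, 29 were at least 2-fold higher in KO in 10 or more of them, 0.989%; this count was chosen after the values were seen. Sod1 was higher in 14 names, Celf1 and Ddx17 in 13, and Ddx3x, Mob1a, Msl2 and Nr4a1 in 12. Cxcr4 was among those at 10, with Bcl2l11, Fosl2, Jak2, Tnfaip3 and Zfp36l1. Several are known as genes of signal response: Nr4a1 and Nr4a3 (11 names) encode nuclear receptors induced by antigen receptor signalling, Sik1 (11 names) a kinase induced by cyclic AMP, and Tnfaip3 an inhibitor of NF-kappaB. Others, such as Celf1, Ddx17, Hnrnph1 and Tardbp, encode RNA-binding proteins. Itgal, higher in 11 names, encodes the alpha chain of the integrin LFA-1.

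**Figure D4:**
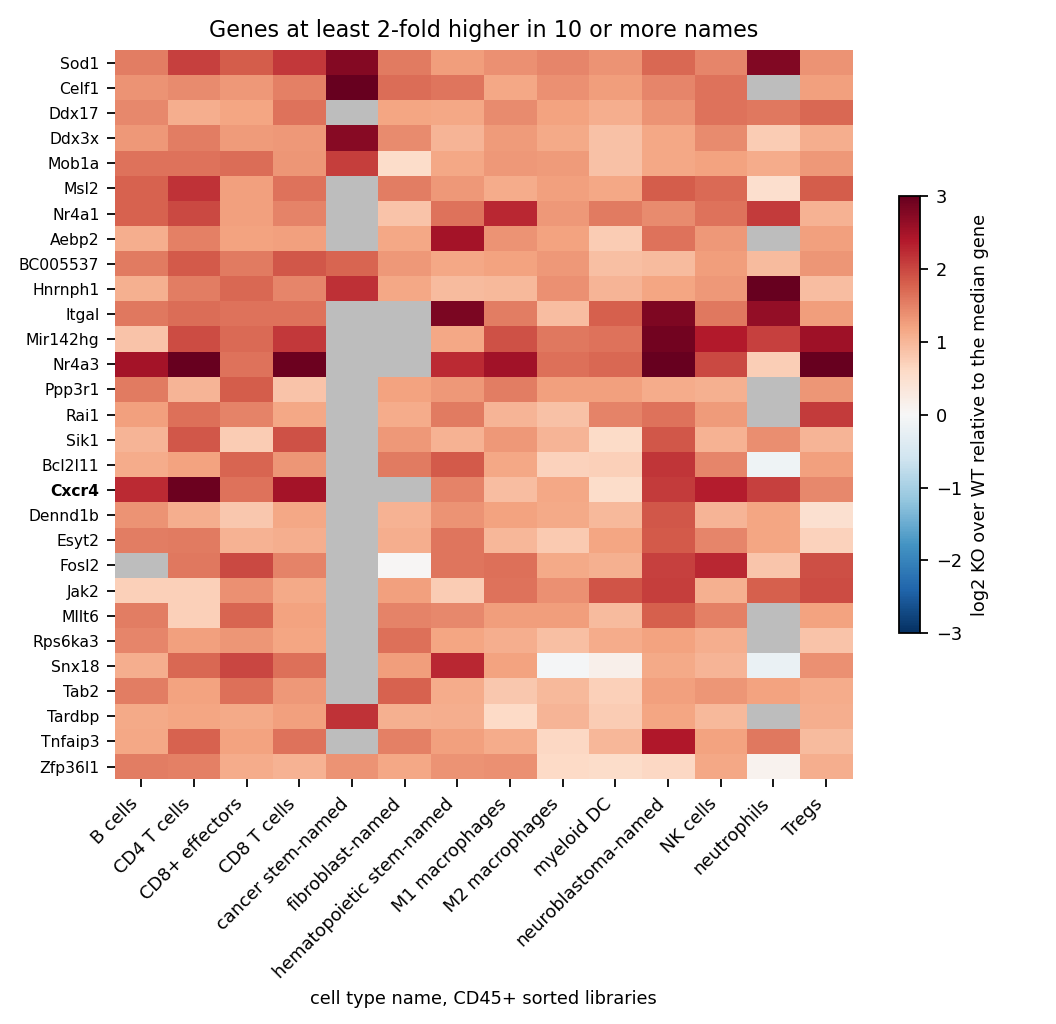
Rows are the 29 genes at least 2-fold higher in CD200R-/- in 10 or more sorted cell type names, columns the 14 names, and colour the log2 KO over WT ratio relative to the median gene of the name, cut at 3; grey marks fewer than 50 UMIs. Cxcr4 (bold) is darkest in CD4 T cells, at 2.95, and palest in myeloid dendritic cells, at 0.54.

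Across the 50 combinations of name and library with at least 50 cells, genes whose levels were among the most like Cxcr4 were Ptk2b (Pearson r 0.95), Ddx3y (0.94), and Stk17b and Birc3 (0.93), over 6584 genes on log2(CPM + 10). These correlations are a description: the combinations share libraries, depth and cell types. Within sorted B cells thinned to equal depth, 14 of 2944 genes (0.476%) were at least 1.5-fold higher in cells with a Cxcr4 UMI than in cells without in both genotypes. By ratio the first 10 were Hes1, Ptbp2, Vcpip1, Sp4, Ephx1, Gtf2a1, Plgrkt, Vps37b, Usp38 and Sik1. The best counted was Vps37b, which encodes a sorting protein of the ESCRT-I complex, at 187 CPM with and 125 without in WT and 542 and 273 in KO. For Hes1, a Notch target, the KO values of 83.5 and 26.0 CPM rest on 82 and 4 UMIs. Only 77 KO cells were without a Cxcr4 UMI, so these ratios are coarse.

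Signs of RNA quality and stress moved with genotype beside Cxcr4. In sorted B cells the share of ribosomal protein UMIs was 29.3% in WT and 17.8% in KO, and the median mitochondrial share 4.64% and 7.64%. Across 18 genes of dissociation and immediate early response, summed levels were 19114 CPM in WT and 15327 in KO B cells, 6606 and 10069 in M1 macrophages and 30395 and 63357 in neutrophils. The members of that list did not move together. Nr4a1 was at least 2-fold higher in KO in 12 of 13 sorted names, with a median ratio of 1.56, whereas Jun was at least 2-fold lower in 11 of 14 and Hspa1a in 7 of 14. In B cells 17 members were counted, of which 1 was called higher and 8 lower, with a median of -0.76; over all genes of these cells 9.91% were called higher and 15.7% lower. In tumor B cells, Cxcr4 was higher with ribosomal shares of 28.5% and 25.6% and mitochondrial shares of 6.25% and 6.38%. Their part in the Cxcr4 difference was not tested.

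Hypoxia genes share a known inducer with Cxcr4. Their summed level was lower in KO in 13 of 14 sorted names, for example 13197 CPM in WT and 4367 in KO neutrophils and 8432 and 3362 in M2 macrophages. Tregs were the exception at 2342 and 2898. Aldoa, a glycolytic enzyme, was at least 2-fold lower in 11 of 14 names and Ldha, lactate dehydrogenase, in 10 of 14. Sorted B cells had 12 of the 18 list genes counted, with 0 higher, 5 lower and a median ratio of -0.72, against 9.91% and 15.7% of all genes. Fibroblast-named tumor cells had 0 higher and 12 lower of 18, with a median of -1.20, against 8.5% and 7.13%. The part of low oxygen in the Cxcr4 difference was not tested.

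Of 9 transcription factors known to act on Cxcr4, none was called in as many sorted names as Cxcr4. Per sorted name, 4.81% to 14.7% of all genes were called higher and 4.86% to 18.2% lower. Epas1 was counted in only 3 sorted names and could not reach the number of Cxcr4. It was called higher in 2 of them (median 1.90) and in 2 of 2 tumor names (2.30). Hif1a, the oxygen-regulated factor, was at least 2-fold higher in KO in 5 of 13 sorted names (median 0.83), Foxo1, which drives homing receptors in lymphocytes, in 4 of 12 (0.89), and Runx1 in 3 of 13 (0.84). Klf2, a factor of lymphocyte quiescence, was at least 2-fold lower in 5 of 14 (-0.65). Nrf1 was called in 0 of 12, with a median of 0.43, and Yy1 in 0 of 13, with -0.24. Nr3c1, the glucocorticoid receptor, was called higher in 1 of 13, and Tsc22d3, its target, lower in 2 of 14. Of the 9, sorted B cells had 8 counted, with 0 higher and 1 lower and a median of 0.46. Over all genes of these cells 9.91% were called higher and 15.7% lower.

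The signalling genes downstream of the receptor moved both ways. Beside the counts below, 4.81% to 14.7% of all genes were called higher and 4.86% to 18.2% lower per sorted name. Per tumor name 4.73% to 12.9% were called higher and 2.69% to 9.4% lower. Rgs2, which turns off G proteins, was at least 2-fold higher in KO in 7 of 13 sorted names and Rgs16 in 4 of 6, while Rgs10 of the same family was lower in 10 of 11. Gnai2, the main Gi subunit of leukocytes, was lower in 5 of 14 (median -0.97), and Rac2, a GTPase of leukocyte migration, in 9 of 14 (-1.07). Dock2, the exchange factor that activates Rac in lymphocytes, was higher in 4 of 12 (0.88). Grk2, a kinase that desensitises the receptor, was higher in 2 of 13, Itch, the ligase that sends it to lysosomes, in 3 of 13, and the arrestin Arrb2 in 1 of 12. Sorted B cells had 17 of the 22 genes counted, 1 higher and 1 lower, with a median of 0.35, shares no larger than the 9.91% and 15.7% over all genes. In the tumor libraries Rgs16 was lower in 2 of 2 names, Rgs10 was higher in 2 of 4 names and Rac2 higher in 3 and lower in 1 of 5, other than in the sorted ones.

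Partners at the cell surface also differed by preparation. Over all genes, 4.81% to 14.7% were called higher and 4.86% to 18.2% lower per sorted name. Per tumor name the shares were 4.73% to 12.9% and 2.69% to 9.4%. Cd44, a hyaluronan receptor known to work with Cxcr4, was at least 2-fold higher in KO in 7 of 13 sorted and 2 of 4 tumor names. Cd74, which binds the cytokine Mif and pairs with Cxcr4, was lower in 5 of 14 sorted and higher in 4 of 6 tumor names. In sorted B cells 3 of 6 listed partners were counted, with 0 called and a median of 0.66. Other ligands leaned lower. Mif, a second ligand of Cxcr4, was at least 2-fold lower in 8 of 14 sorted names (median -1.06), Adm, which binds Ackr3, in 4 of 4 (-1.44), and Ubb, a ubiquitin gene whose product binds Cxcr4 outside the cell, in 14 of 14 (-2.37). Hmgb1, which binds Cxcl12, was called in 0 of 14. In sorted B cells 3 of 5 were counted, with 2 lower and a median of -1.33, where 15.7% of all genes were lower. In the tumor libraries Ubb was lower in 1 of 7 names (-0.70), Mif in 2 of 7 (-0.76) and Adm in 3 of 3 (-1.73).

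Of the proteases that cut Cxcl12, Mmp9 was at least 2-fold higher in KO in 3 of 4 sorted names and 2 of 2 tumor names, and Dpp4, a dipeptidase that inactivates the chemokine, in 3 of 6 sorted names. Mmp2, a matrix protease, was lower in 4 and higher in 1 of 6 tumor names, and Ctsb lower in 3 of 14 sorted names. Of 8 proteases, 2 were counted in sorted B cells, with 0 called and a median of -0.38. The shares of all genes called per sorted and tumor name, given above for the partners, apply to these counts too. Niche genes of Cxcl12-rich stroma went both ways in the tumor libraries. Prrx1, a mesenchymal transcription factor, was at least 2-fold lower in 6 of 6 tumor names and 3 of 3 sorted names, Angpt1 in 2 of 2 of each, and Pdgfra in 3 of 4 tumor names, while Il7 was higher in 2 of 2 and Vcam1 in 3 of 4 tumor names. Spp1 was lower in 11 of 13 sorted names. In fibroblast-named tumor cells 11 of 12 niche genes were counted, 3 higher and 3 lower (median 0.34), against 8.5% and 7.13% of all genes. Neuroblastoma-named tumor cells had 2 higher and 4 lower of 11 (median 0.32), against 7.02% and 7.34%. In sorted B cells 1 was counted, and it was lower, at -2.08, where 15.7% of all genes were lower.

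Most Ackr3 RNA was read under the graft names of the tumor libraries and hardly differed there between genotypes. Its level was higher in the few endothelial-named cells. The matrix had 2733 Ackr3 UMIs in 1755 cells, 8.61% of all cells, with 226 UMIs in WT-sorted, 62 in KO-sorted, 1244 in WT-tumor and 1201 in KO-tumor. Fibroblast-named tumor cells had 557 UMIs in WT (11.6 CPM, 10.6 to 12.6) and 555 in KO (11.8 CPM, 10.8 to 12.8). Neuroblastoma-named tumor cells had 581 UMIs in WT (11.6 CPM, 10.6 to 12.5) and 489 in KO (11.7 CPM, 10.7 to 12.8). All 4 levels overlapped. The 218 stem-named cells of KO-tumor were alike at 12.6 CPM (10.3 to 15.3). Relative to the median gene the ratio was -0.27 (-0.44 to -0.10) in fibroblast-named cells, where 7.13% of genes were at least 2-fold lower, and -0.17 (-0.35 to 0.00) in neuroblastoma-named cells, where 7.34% were. Neither was called, and by total UMIs both ratios were 0.02 (-0.15 to 0.20 and -0.16 to 0.20). The gene lay at 11.6 to 11.8 CPM while hypoxia genes, Prrx1 and Angpt1 differed in the same cells.

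**Figure D5:**
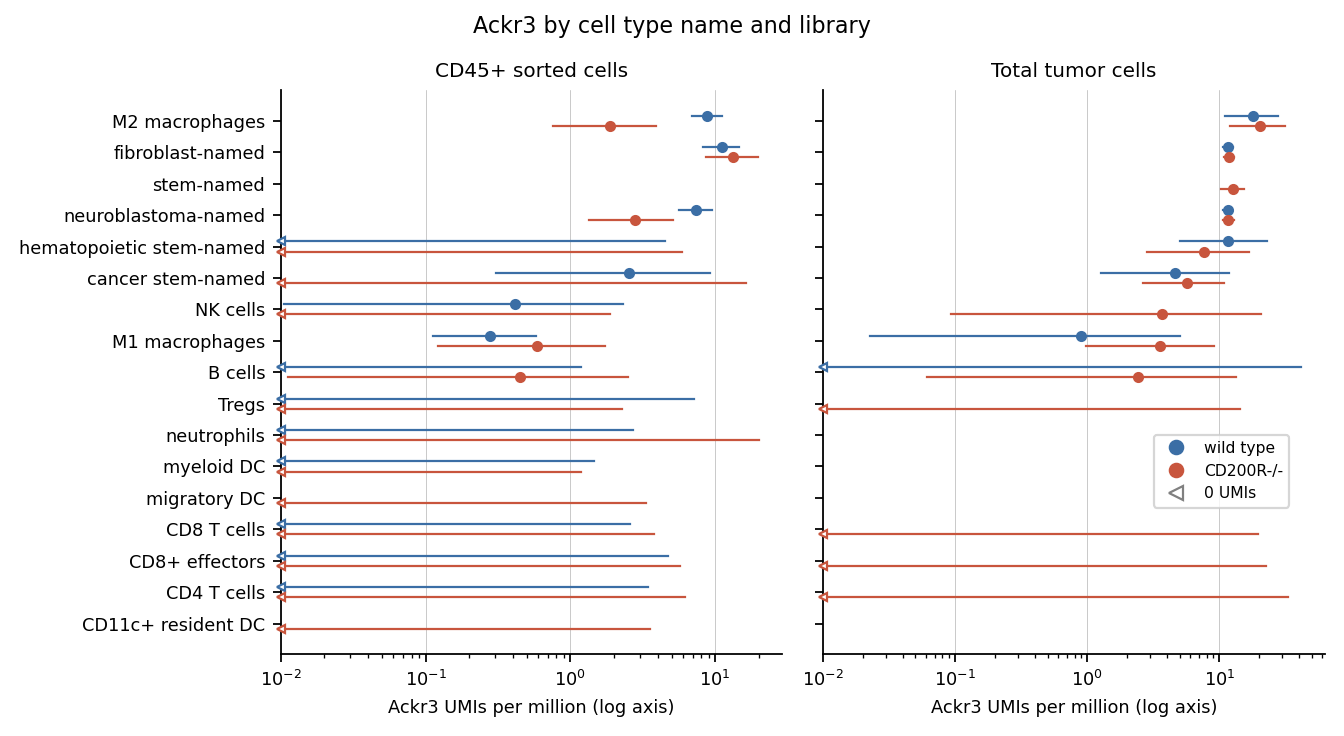
Ackr3 CPM (log axis) by cell type name for names with at least 50 cells in the library; points are library values, lines exact 95% Poisson intervals, blue wild type and red CD200R-/-, and open triangles at the left edge mark 0 UMIs. Fibroblast-, neuroblastoma- and stem-named cells of the tumor panel cluster at 11.6 to 12.6 CPM, and T cell names have 0 UMIs.

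Lymphocytes had almost no Ackr3. T cell, Treg, neutrophil and myeloid dendritic names of the sorted libraries had 0 UMIs, and B cells had 0 in WT-sorted and 1 in KO-sorted. The 0 of B cells in WT-sorted allows up to 0.379% of cells with a UMI. Among fibroblast-named tumor cells 16.3% in WT and 14.3% in KO had an Ackr3 UMI, and among neuroblastoma-named tumor cells 25.0% and 24.0%, at medians of 18299, 18136, 27927 and 31582 UMIs. Of the 69 cells with both receptors, 22 were M2 macrophages, 16 endothelial-named, 14 fibroblast-named, 7 M1 macrophages and 6 neuroblastoma-named. Among M2 macrophages 614 of 1287 cells had Cxcr4, and 22 of the 55 cells with Ackr3 did. Among fibroblast-named cells 45 of 5196 had Cxcr4, and 14 of the 798 with Ackr3 did.

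Within macrophage names, cells with Ackr3 differed in makeup between libraries. WT-sorted M2 macrophages had 74 Ackr3 UMIs in 33 of 627 cells (8.82 CPM, 6.93 to 11.1), and KO-sorted had 7 in 4 of 411 cells (1.89 CPM, 0.758 to 3.89). The ratio was -2.59 (-3.95 to -1.48), called lower where 8.71% of genes were at least 2-fold lower. The 33 WT-sorted cells with an Ackr3 UMI had summed leukocyte markers of 1511 CPM, monocyte and macrophage markers of 4696 CPM and fibroblast markers of 16.6 CPM, against 2162, 7121 and 16.9 CPM in the 594 cells without. The 4 KO-sorted cells with an Ackr3 UMI had 972, 3248 and 507 CPM, against 3207, 6948 and 29.0 in the others. In the tumor libraries, where M2 macrophages stood at 18.0 CPM in WT and 20.2 in KO, the 10 WT cells with an Ackr3 UMI had 0 leukocyte and 0 macrophage marker UMIs and 1195 CPM of fibroblast markers. The 71 WT-tumor cells without had 309 CPM of leukocyte, 1518 of macrophage and 1432 of fibroblast markers. Fibroblast markers were thus not particular to the WT-tumor cells with Ackr3. The 8 KO-tumor cells with an Ackr3 UMI had 36.6 CPM of leukocyte and 1004 CPM of fibroblast markers, against 1619 and 252 in the 160 cells without. The tumor ratio was -0.18 (-1.17 to 0.80), where 9.4% of genes were at least 2-fold lower, and -1.87, past 2-fold, when each cell had equal weight. The Ackr3 of M2-named cells was therefore read beside macrophage markers in WT-sorted, beside fibroblast markers in the tumor libraries and beside both in KO-sorted.

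Neuroblastoma-named cells of the sorted libraries had 59 Ackr3 UMIs in WT (7.32 CPM) and 10 in KO (2.78 CPM), a ratio of -1.66 (-2.79 to -0.68) where 12.9% of genes were at least 2-fold lower, and -2.94 with equal weight per cell. All 10 KO UMIs came from 4 cells whose barcodes were found in other libraries too; without such cells KO had 0 UMIs (up to 1.54 CPM) and WT 58 (7.47 CPM, 5.67 to 9.66). The 30 WT cells with an Ackr3 UMI had 86.6 CPM of summed leukocyte and 3051 CPM of fibroblast markers, against 1353 and 805 in the 175 cells without. The Ackr3 of this name was thus read beside fibroblast markers, and the part of its makeup in the ratio was not tested. Fibroblast-named sorted cells had 50 and 25 UMIs, 11.1 and 13.3 CPM, a ratio of -0.12 (-0.87 to 0.60) where 14.2% of genes were at least 2-fold lower. Cells with shared barcodes held 18 of the 25 KO UMIs; without them the KO level was 7.37 CPM (2.96 to 15.2) and the ratio -0.90.

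Over the 50 combinations of name and library, the genes most like Ackr3 were P4ha2 and Map1b (Pearson r 0.90), Twist1 (0.89), Tbx3 (0.88) and Fermt2 (0.87). Twist1 and Tbx3 encode transcription factors of mesenchymal and neural crest development, and P4ha2 a collagen hydroxylase. The highest Ackr3 level among them was 20.2 CPM against the added 10, so the scale compresses its range. For Cxcl12, whose highest level was 5.86 CPM, the most like gene reached 0.53 (Dio2), and likeness says little. Among equally thinned fibroblast-named tumor cells, 456 of 7316 genes (6.23%) were called at least 1.5-fold higher with an Ackr3 UMI in both genotypes. A count of 0 was set to 3 here, so genes without a UMI in the cells with Ackr3 could be called. Scarb2 and Irak4, both among the first 10, had 0 UMIs in the WT cells with Ackr3. These cells numbered 53 in WT and 55 in KO, and 9 of the first 10 genes had at most 10 UMIs in them in each library. Igfbp6, which encodes an IGF binding protein, was the best counted of the first 10, at 160 CPM with and 64.3 without in WT and 1264 and 323 in KO.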

How the data were processed

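Single cells of 16 samples in 4 groups were profiled with a droplet 3' kit. Per the submitters' processing notes, Cell Ranger 6.0.1, Seurat 4.0.5 and the mm10 genome were used; the role of each is not given in the sources used here. The authors deposited natural log values, ln of 1 plus a gene's share of the cell's total scaled to 10000, with cell type names and total counts per cell. Whole UMI counts were recovered from these deposited values and totals: 0 of 60957742 nonzero values lay over 0.01 UMI from a whole number, and all 20376 cell sums equalled the deposited total count. Cells had 500 to 126881 UMIs.

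Counts were summed per cell type name and library. CPM were given with exact Poisson intervals, shares with Clopper-Pearson intervals and ratios with conditional binomial intervals, at 95%. Intervals cover counting error only. Names needed 50 cells in both libraries, members 20 UMIs and other genes 50 UMIs over both, and 2-fold was called; a count of 0 was set against a floor of 3. No test was run, since each group was 1 library. The ratio and interval code was tested on simulated data. Doublets were treated by leaving out, as an alternative, cells with at least 3 markers in each of 2 of 6 lineages; no doublet caller was run. Further alternatives were total UMIs, equal weight per cell, thinning to 2000 UMIs and a stricter filter (1000 UMIs, 500 genes, 10% mitochondrial).

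The members and lists were chosen with earlier results of these data known. Named genes were all 3 members, the 5 genes most like each (Pearson on log2 of CPM plus 10), the first 10 genes by their smaller ratio in cells with a member's UMI, and genes of 8 fixed lists; 3 listed genes were not matched. One gene that this rule names is not reported here. Python 3.11.15, numpy 2.4.6, pandas 2.3.3, scipy 1.17.1 and matplotlib 3.10.9 were used. Promoter windows came from RefSeq.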

Additional observations from a re-analysis of the deposited data

How the results depend on the processing

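With 1 library per group, counting intervals are the only error here, and mouse, sample and library cannot be told apart from genotype. No paired analysis was possible because cells carry no sample or replicate number, and for the same reason no replicate could be left out. Leaving out shared barcodes was chosen after seeing the data. The number of sorted names with Cxcr4 at least 2-fold higher in KO, 10 of 14, ranged from 10 to 12 over the alternatives, and 0 were lower in each. In the tumor libraries it was 3 of 4, and 2 under the stricter filter or without doublets. After thinning it was 1, since 1 name still had 20 Cxcr4 UMIs. The Ackr3 ratio in fibroblast-named tumor cells, -0.27, was 0.02 by total UMIs and 0.01 under the stricter filter. In neuroblastoma-named tumor cells it was -0.17, 0.02 by total UMIs and 0.42 after thinning. The causes of these shifts were not tested, except that total UMIs leave out the shift of the median gene. Among single ratios that are not listed here, moves beyond the counting interval numbered 9 of 22 by total UMIs, 7 of 20 after thinning, 6 of 22 with equal weight, 2 of 21 without shared barcodes, 1 of 21 under the stricter filter and 0 of 22 without doublets. For Cxcr4 in B cells the ratio ranged from 2.17 to 2.68 sorted and 1.61 to 2.07 unsorted. The Cxcl12 ratio in neuroblastoma-named tumor cells gave no value after thinning, and the Ackr3 ratio in neuroblastoma-named sorted cells none after thinning or without shared barcodes, since a library then had 0 UMIs. With genes of 20 UMIs in place of 50, 6.63% to 17.9% of genes were called higher in the sorted names, and with 1.5-fold in place of 2-fold 15.6% to 26.6%.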
